A study of Mus musculus with 8 samples.

Results

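Of 8 microarrays of pooled 2-cell mouse embryos, 6 are described here, 3 with the highest and 3 with the lowest levels of oviduct marker genes. The marker level of an array was the mean log2 value of 10 genes of the oviduct lining (Dynlrb2, Ltf, Wfdc2, Lcn2, Tppp3, Clu, Rsph1, Krt19, Sec14l3 and Foxj1), each taken from its brightest probeset. The marker-high arrays were KDM1A TG replicate 1, nonTG replicate 1 and KDM1A TG replicate 3, and the marker-low arrays were KDM1A TG replicate 2, C57BL/6 replicate 1 and C57BL/6 replicate 3. The remaining arrays, nonTG replicate 2 and C57BL/6 replicate 2, lay between them and are given for reference. Because measured values chose the arrays, every difference between the marker-high and marker-low arrays is a description, and no test was made of it. The description asks which genes were high where oviduct markers were high, and which were high where those markers were low.

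The study measured RNA of 2-cell embryos by the kind of male that sired them. All mothers were C57BL/6 females given 5 IU each of eCG and hCG, and embryos were flushed from the oviducts of mated females 46 to 48 hours after hCG. The sires were C57BL/6 males (3 arrays), males carrying a KDM1A transgene (KDM1A TG, 3 arrays) or non-transgenic littermates of those males (nonTG, 2 arrays). Each array held the RNA of a pool of 26 embryos on average. What drives the transgene and which embryos inherited it is not stated in the labels. Nor is it stated whether pools of 1 kind of sire had different fathers, so a p-value here covers the spread among the pools at hand, part of which may be technical. No probeset carried the symbol Kdm1a alone, and that gene was not analysed here as a check of the labels. The number of arrays limits the precision of every value.

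The oviduct is lined by ciliated cells, whose beating cilia move the embryo, and by secretory cells, which release proteins into the fluid around it. A muscle layer and connective tissue lie under this lining. Motile cilia are built on an axoneme of microtubules with dynein arms and radial spokes, and ciliated cells switch on their genes with the transcription factors FOXJ1 and the RFX family. The 2-cell embryo carries RNA loaded by the oocyte, which is degraded as the embryonic genome becomes active in a burst of transcription named after this stage. In RNA of a pool, fewer cells of a type and less RNA per cell cannot be told apart.

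Ciliary genes, mostly higher in the marker-high arrays, and maternal oocyte genes, mostly lower, are among the groups described, and 3 promoters of each are shown with a short element known from that group. GTTGCC is the half-site bound by RFX factors, which regulate ciliary genes. In the 250 bases before the gene start, GTTGCC occurred on either strand in 26 of 72 ciliary genes of the arrays with a RefSeq promoter (36.1%), against 8 of 43 maternal oocyte genes (18.6%) and 11.8% of all 27025 genes with a promoter. In the promoters of 3 ciliary genes, all higher in the marker-high arrays, the capitals mark GTTGCC or its reverse complement. The windows are those of Deup1 at chr9:15627847-15628096 on the minus strand, Lrrc34 at chr3:30647819-30648068 on the minus strand and Sntn at chr14:13670626-13670875 on the plus strand. The matches start 79, 50 and 66 bases before the gene start.
Deup1: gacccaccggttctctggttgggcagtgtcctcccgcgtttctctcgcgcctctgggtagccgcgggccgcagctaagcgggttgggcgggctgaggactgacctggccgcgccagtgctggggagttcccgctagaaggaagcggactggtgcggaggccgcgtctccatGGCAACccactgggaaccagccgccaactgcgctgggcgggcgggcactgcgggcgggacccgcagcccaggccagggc
Lrrc34: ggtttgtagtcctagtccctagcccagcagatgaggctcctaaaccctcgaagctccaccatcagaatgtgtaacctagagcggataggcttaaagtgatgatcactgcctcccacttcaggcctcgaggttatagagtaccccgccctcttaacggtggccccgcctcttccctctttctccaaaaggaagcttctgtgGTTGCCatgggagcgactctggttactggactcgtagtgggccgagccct
Sntn: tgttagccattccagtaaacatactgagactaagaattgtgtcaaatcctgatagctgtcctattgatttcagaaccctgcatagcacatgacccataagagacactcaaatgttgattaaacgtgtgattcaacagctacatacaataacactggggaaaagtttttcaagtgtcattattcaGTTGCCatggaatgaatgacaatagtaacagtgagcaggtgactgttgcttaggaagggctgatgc

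CAGGTG is one form of the E-box CANNTG, the kind of element through which the oocyte factor FIGLA acts on zona pellucida genes. It occurred in 21 of 43 maternal oocyte genes with a promoter (48.8%), in 7 of 22 secretory (31.8%), 13 of 50 oxidative phosphorylation (26%) and 18 of 72 ciliary genes (25%), and in 19.4% of all genes. The general form CANNTG occurred in 41 of 43 maternal genes (95.3%) and in 69.3% of all genes. In the promoters of 3 maternal genes, all lower in the marker-high arrays, the capitals mark CAGGTG or its reverse complement. The windows are those of Tcl1b1 at chr12:105159454-105159703 on the plus strand, Btg4 at chr9:51115751-51116000 on the plus strand and Tcl1 at chr12:105222738-105222987 on the minus strand. The matches start 88 and 63 bases before the start of Tcl1b1, 70 before that of Btg4 and 21 before that of Tcl1.
Tcl1b1: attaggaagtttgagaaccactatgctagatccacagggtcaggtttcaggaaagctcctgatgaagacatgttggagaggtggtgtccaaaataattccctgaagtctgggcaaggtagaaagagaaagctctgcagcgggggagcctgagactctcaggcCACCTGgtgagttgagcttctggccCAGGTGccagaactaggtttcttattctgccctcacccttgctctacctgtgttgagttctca
Btg4: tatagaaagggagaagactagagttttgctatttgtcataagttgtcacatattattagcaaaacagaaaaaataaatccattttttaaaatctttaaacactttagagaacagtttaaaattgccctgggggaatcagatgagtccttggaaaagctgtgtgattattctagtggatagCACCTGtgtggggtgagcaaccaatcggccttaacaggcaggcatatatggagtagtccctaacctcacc
Tcl1: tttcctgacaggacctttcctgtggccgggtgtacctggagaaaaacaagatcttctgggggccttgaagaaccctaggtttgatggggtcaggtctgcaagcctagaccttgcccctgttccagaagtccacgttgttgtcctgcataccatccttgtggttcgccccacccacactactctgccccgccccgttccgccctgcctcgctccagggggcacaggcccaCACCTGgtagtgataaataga

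All sequences are RefSeq windows of GRCm38.p6, written 5′ to 3′ on the strand of the gene. In all, 9 motifs were searched on both strands (GTTGCC with a pair of longer forms of the RFX site, the forkhead element GTAAACA, the E-box CANNTG with its forms CAGGTG and also CACGTG, the homeobox element TAATTG and its variant TAATTA), and those shown were chosen with their shares in view. A match is a description of the letters and not of binding.

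The mean log2 value of the 10 markers was 7.31 for KDM1A TG replicate 1, 7.18 for nonTG replicate 1 and 7.17 for KDM1A TG replicate 3. It was 7.05 in nonTG replicate 2 and 6.85 in C57BL/6 replicate 2, and 6.54, 6.43 and 5.98 in KDM1A TG replicate 2, C57BL/6 replicate 1 and C57BL/6 replicate 3. The lowest marker-high array thus stood 0.11 above the next array, and the highest marker-low array 0.31 below its neighbour, within a full range of 1.33. The upper boundary is the narrower one. Further values are given in this order of arrays, marker-high first, then the arrays between, then marker-low.

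Foxj1, the master transcription factor of motile cilia, had log2 values of 6.29, 5.88 and 5.82 in the marker-high, 5.55 and 5.45 in the between and 5.4, 4.62 and 4.82 in the marker-low arrays. The dynein light chain gene Dynlrb2 stood at 10.36, 10.18 and 9.73, then 10.14 and 10.33, then 9.44, 9.68 and 9.12. The secreted protease inhibitor gene Wfdc2 stood at 7.56, 7.75 and 7.62, then 7.9 and 7.03, then 7.41, 6.54 and 5.75. For 8 of the 10 markers the sets did not overlap, as the choice by their mean favours. The exceptions were the iron-binding proteins Ltf and Lcn2, which neutrophil granules also hold. Lcn2 was 7.55, 8.22 and 7.09 in the marker-high arrays but 8.14 in C57BL/6 replicate 1, and Ltf was lower in KDM1A TG replicate 1 (8.05) than in the marker-low KDM1A TG replicate 2 (8.06). No marker lay under 4.25 in any of the 8 arrays, where the filter on low values was set at 2.07.

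**Figure D1:**
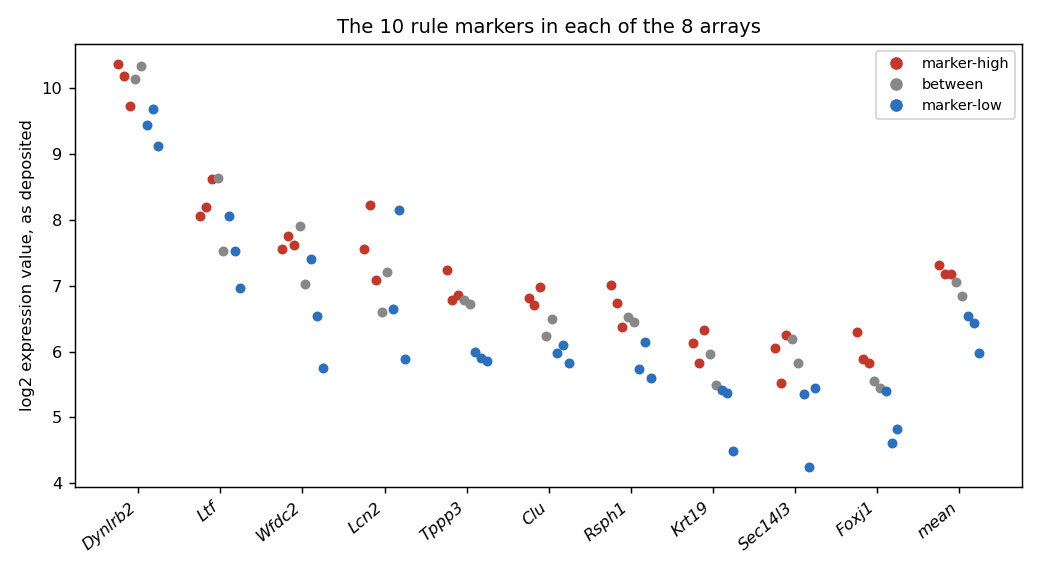
Log2 expression values of the 10 markers and their mean (vertical axis) in each of the 8 arrays, ordered within each marker by the marker mean; red points are marker-high, grey between and blue marker-low arrays. The sets do not overlap for 8 markers, while Ltf and Lcn2 each have a blue point among the red ones.

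The ciliary and the secretory markers did not rank the arrays in the same way. The mean of the 5 ciliary markers (Dynlrb2, Tppp3, Rsph1, Sec14l3 and Foxj1) was 7.39, 7.02 and 7.01, then 7.04 and 6.96, then 6.39, 6.12 and 6.17. By this mean nonTG replicate 2 took the place of KDM1A TG replicate 3 among the highest 3. The mean of the 5 secretory and epithelial markers was 7.22, 7.34 and 7.33, then 7.07 and 6.75, then 6.7, 6.74 and 5.79, which chose the same 6 arrays. The 4 markers Dynlrb2, Ltf, Wfdc2 and Foxj1 alone, and all 10 after quantile normalization or cyclic loess, also placed nonTG replicate 2 among the highest 3. The lowest 3 arrays were the same in every ranking made.

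Sire and marker set were not balanced, since the marker-high arrays hold no C57BL/6 pool and the marker-low arrays no nonTG pool. The marker-high arrays include the 2 with the widest spread of all probesets. The interquartile range of an array was 2.38, 2.06 and 2.6 in the marker-high, 1.87 and 2.02 in the between and 2.09, 1.91 and 1.96 in the marker-low arrays. The widest were KDM1A TG replicates 1 and 3, while nonTG replicate 1 lay inside the range of the other 5 arrays. The medians of the lists without them stand beside the comparisons within a kind of sire.

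Across the 11434 genes compared, 2509 (21.9%) were higher and 1030 (9.01%) lower in all marker-high than in all marker-low arrays. The difference of means had a median of 0.14 on the log2 scale, with 6767 genes above 0 and a 5th to 95th percentile range of -0.66 to 0.99. Among the 2859 genes with the lowest mean level this median was -0.1, and among the 2859 with the highest it was 0.42. After quantile normalization the split was 1960 higher and 1411 lower, and after cyclic loess 1818 and 1492, with all-gene medians of 0.08 and 0.07. With 1 of the 6 arrays left out, which by construction leaves less room for overlap, 2773 to 3859 genes were higher and 1385 to 1610 lower. Each list of genes below is therefore given beside these values. Since the arrays were chosen on the same contrast, nothing is read from how far the share of a list lies above its background.

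Ciliary genes were higher in the marker-high arrays. Of 83 motile cilia genes compared (84 of 117 listed were on the array under 1 symbol), 76 had a difference above 0, with a median of 0.79, and 60 were higher without overlap (72.3%). None was lower without overlap. Their mean level was 4.91, 4.69 and 4.76, then 4.44 and 4.42, then 4.13, 4.07 and 4.02, so that all 3 sets stood apart. For 15 of them every marker-high array lay above both between arrays, and these above every marker-low array, against 303 of all genes (2.65%).

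Deup1, which makes the deuterosomes on which multiciliated cells build their centrioles, stood at 4.55, 4.23 and 3.08, then 2.66 and 3.18, then 2.47, 2.19 and 2.87, a difference of 1.44. Sntn, a protein of the ciliary tip, stood at 8.53, 8.37 and 7.73, then 7.93 and 8.16, then 7.16, 7.49 and 6.68. Tuba1a, an alpha tubulin, differed most evenly. Its values were 7.25, 7.28 and 7.3, then 6.22 and 6.6, then 5.78, 5.74 and 5.9, a difference of 1.47 or 2.77-fold. Tubulin is also used by every other cell. Morn5 (1.51) and Lrrc34 (1.34) completed the 4 largest differences of this list.

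Differences of ciliary genes varied within roles. The radial spoke genes Rsph4a and Rsph9 had differences of 1.06 and 1.01, the dynein genes Dnali1 and Dnah5 of 0.99 and 0.71, and the dynein assembly factor genes Zmynd10 and Lrrc6 of 1.04 and 1.14. Other dynein genes, Dnaic2 (0.36) and Dnah2 (-0.01), and the assembly factor gene Dnaaf3 (-0.44) overlapped. Hydin, of the central pair, had a difference of 0.85. Among regulators, Rfx3 (0.54) and Myb (0.86) were higher in all marker-high than in all marker-low arrays, while Rfx2 (-0.01) and Foxn4 (0.07) overlapped. Gmnc and Mcidas, which start the multiciliated program in precursor cells, overlapped, with differences of 0.37 and -0.41. Mcidas stood at 3.45, 3.41 and 3.03, then 2.93 and 3.25, then 3.61, 4.14 and 3.35. Dnah2 (2.12 to 3.14), Foxn4 (1.8 to 2.96) and Gmnc (1.8 to 2.92) were low in all arrays, where the filter was set at 2.07. Nothing is read from the overlap of these low genes. Rfx3, higher without overlap, was low too (2.53 to 3.28). Dnaic2, Dnaaf3, Rfx2 and Mcidas stood at 2.93 or above in every array. In the ciliary list, 9 of 83 genes had a mean level under 3.

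Genes of the secretory epithelium were higher as well, but less evenly over the arrays. Of 27 compared, 25 had a difference above 0 (median 0.87) and 13 were higher without overlap (48.1%). Their mean level was 5.14, 5.25 and 5.75, then 4.61 and 5.19, then 4.67, 4.79 and 4.27. The array nonTG replicate 2, which the ciliary markers place among the highest, thus lay with the marker-low arrays for this list. Dcpp3, a secreted protein of the oviduct, showed this most. Its values were 5.69, 7.6 and 8.97, then 2.99 and 7.96, then 5.85, 5.63 and 5.47, which overlap, and its difference of 1.77 turned to -0.23 with the arrays ranked by ciliary markers. The median of the list was then 0.38.

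Wfdc18, a secreted protein of the same family as Wfdc2, stood at 7.95, 7.95 and 9.34, then 7.5 and 8.1, then 6.78, 7.21 and 7.06. Agr2, a disulfide isomerase needed for mucin production, stood at 5.17, 5.27 and 6.58, then 4.26 and 5.33, then 4.49, 4.73 and 4.32. These sets do not overlap. The oestrogen receptor gene Esr1 (1.13), the progesterone receptor gene Pgr (0.87) and Pax8 (0.96), a transcription factor of secretory cells in the tract, were also higher without overlap, Pgr by 0.47 without KDM1A TG replicate 3. Of 25 genes of epithelial junctions and keratins, 22 had a difference above 0 (median 0.69), 11 were higher (44%) and 3 lower (12%) without overlap. The keratin gene Krt18 stood at 8.05, 7.18 and 7.67, then 7.51 and 7.44, then 6.75, 6.68 and 6.13. The lower ones were Marveld2 (-0.33), Dsg2 (-0.56) and Itgb6 (-0.56). Dsg2 (1.94 to 2.9) and Itgb6 (1.88 to 2.9) were low in all 8 arrays, where the filter was set at 2.07. Early embryos can make keratins and junction proteins too, so these genes do not mark the tract alone.

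**Figure D2:**
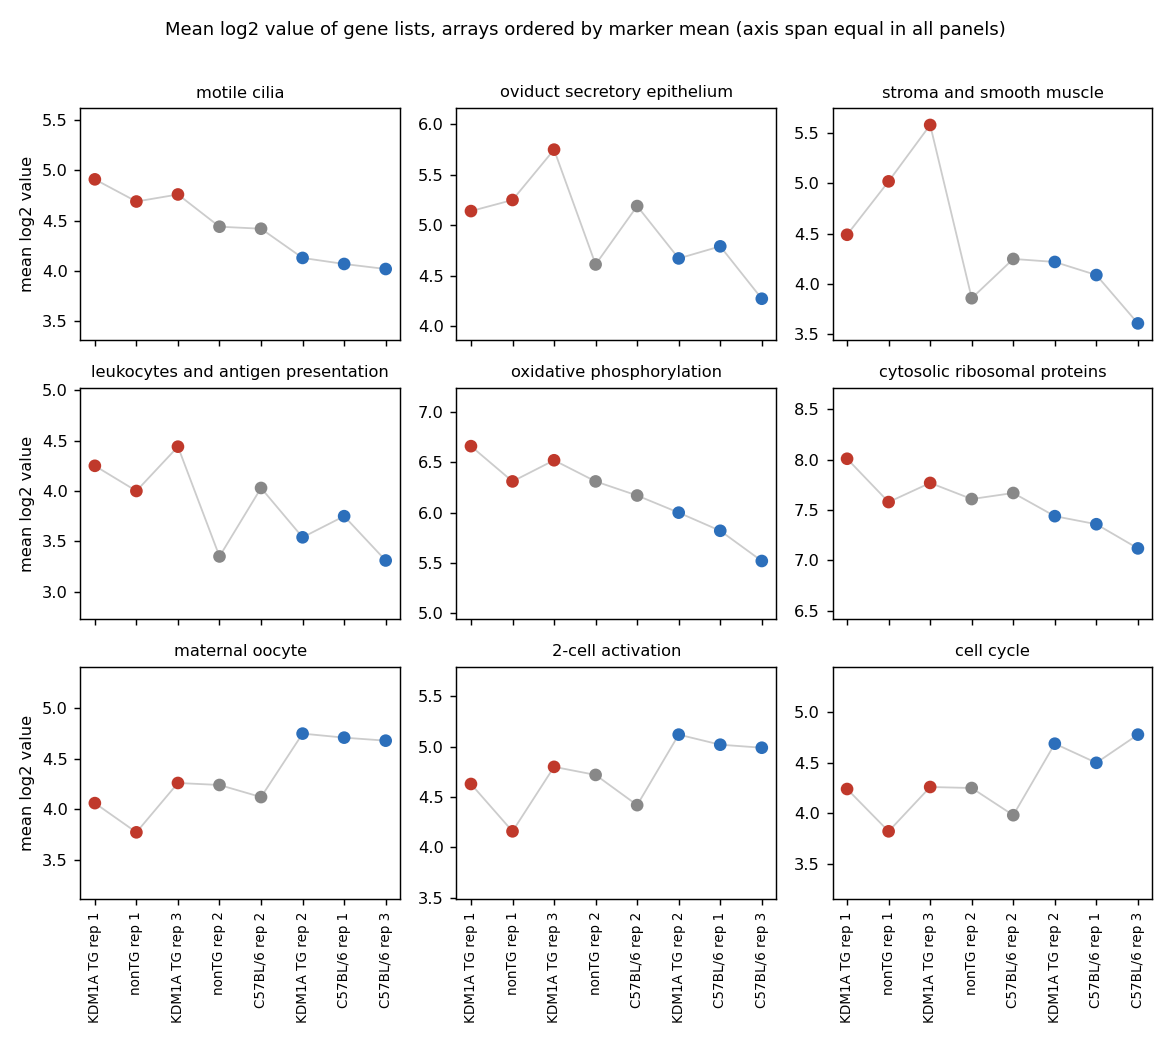
Mean log2 value of 9 gene lists (vertical axis, the same span in every panel) in each of the 8 arrays, ordered by marker mean; red marker-high, grey between, blue marker-low. Motile cilia genes step down over the 3 sets, stroma and smooth muscle genes peak at 5.58 in KDM1A TG replicate 3, and the between arrays lie with the marker-high ones for maternal oocyte, 2-cell activation and cell cycle genes.

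Markers of the tissue under the lining moved with the epithelial ones. All 28 genes of stroma and smooth muscle had a difference above 0 (median 0.92), and 15 were higher without overlap (53.6%). Their mean level was 4.49, 5.02 and 5.58, then 3.86 and 4.25, then 4.22, 4.09 and 3.61. Actg2, the gamma actin of smooth muscle, stood at 3.97, 5.03 and 6.14, then 1.69 and 2.46, then 2.14, 3.43 and 2.37, a difference of 2.40 (5.27-fold). Mgp, a matrix protein that binds calcium, stood at 7.8, 8.39 and 9.06, then 6.66 and 7.29, then 7.06, 6.89 and 5.84. KDM1A TG replicate 3 was highest for both genes, and the between arrays were low. The collagen genes Col1a1 and Col1a2 had differences of 1.49 and 1.64. With the arrays ranked by ciliary markers the median of the list was 0.41, and that of the leukocyte genes described next was 0.19.

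Leukocyte and endothelial genes had smaller median differences than stromal genes. Of 18 leukocyte and antigen presentation genes, all had a difference above 0 (median 0.51) and 9 were higher without overlap (50%). Lyz1, a lysozyme, stood at 5.41, 4.56 and 4.37, then 3.03 and 5, then 2.69, 2.72 and 3.21. It also belongs to the epithelial defence list, so it does not mark leukocytes alone. Lyz2, of the leukocyte list, had a difference of 0.4 with sets that overlap. Ptprc, the pan-leukocyte antigen CD45, stayed between 2.05 and 2.95 in all arrays with a difference of 0.24. The 3 endothelial genes compared (Cdh5, Emcn and Eng) all overlapped, and each had a mean level under 3. Their median of 0.42 was 0.16 without KDM1A TG replicate 3, 0.18 without nonTG replicate 1 and 0.21 without KDM1A TG replicate 2. None of the 11 red blood cell genes listed was on the array under 1 symbol.

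Neutrophil genes ran apart from the markers. Of 9 compared (another 6 were under the filter on low values), 3 had a difference above 0, and the list had a median of -0.22. S100a8 and S100a9, the calcium-binding proteins of neutrophil cytoplasm, had differences of -2.09 and -1.94 with sets that overlap, and of -1.09 and -0.94 without C57BL/6 replicate 1. S100a8 stood at 2.8, 4.77 and 2.59, then 1.73 and 3.76, then 4.71, 7.49 and 4.24. The highest value was that of C57BL/6 replicate 1, the array in which Lcn2 was at 8.14. Hp, the haptoglobin gene, was higher without overlap (0.77), and Mpo was lower without overlap (-0.44). Of the 9 genes, 4 had a mean level under 3. The median of the list was -0.01 without C57BL/6 replicate 3, -0.43 without nonTG replicate 1, and 0.15 with nonTG replicate 1 as the sole high array.

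Cumulus and granulosa cell genes (15 compared, median 0.02) and sperm genes (7 compared, another 9 under the filter, median -0.08) showed no common direction, and these medians turned sign under other scalings. The mean of the sperm list was higher in the marker-high arrays (2.77 against 2.61), opposite to its median, with Meig1 (1.03) as its largest difference. Meig1 is needed to form the sperm flagellum. In the cumulus list, 10 of 15 genes had a mean level under 3, and in the sperm list 6 of 7.

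RNA of the oocyte was lower where the markers were high. Of 54 maternal oocyte genes compared (7 more were under the filter), 51 had a difference below 0 with a median of -0.74, and 29 were lower without overlap (53.7%). None was higher without overlap. Their mean level was 4.06, 3.77 and 4.26, then 4.24 and 4.12, then 4.75, 4.71 and 4.68. The marker-low arrays were close to each other, and the between arrays lay inside the range of the marker-high ones.

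Dppa3, which protects DNA methylation in the egg and zygote, stood at 8.93, 7.83 and 8.87, then 9.1 and 8.86, then 10.01, 9.67 and 10.18, a difference of -1.41. Btg4, an adaptor of the deadenylase that removes maternal messages, stood at 6.36, 5.88 and 6.73, then 7.11 and 6.08, then 7.52, 7.51 and 7.52. The marker-low values of Btg4 lay within 0.01 of each other. The zona pellucida genes Zp3 and Zp2 had differences of -1.06 and -0.84, and the oocyte growth factor genes Bmp15 and Gdf9 of -0.94 and -0.57, which were -0.54 and -0.36 without nonTG replicate 1. Nlrp5, of the subcortical maternal complex, had one of -0.94 and stood at 2.86 and 2.75 in the between arrays, under all 6 others. The largest exception was Plat, the tissue plasminogen activator (0.94), with sets that overlap.

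Genes of the 2-cell activation list, named after the burst of transcription at the 2-cell stage, were lower too, with more exceptions. Of 40 compared (5 more under the filter), 30 had a difference below 0, with a median of -0.70, 16 were lower (40%) and 2 higher (5%) without overlap. Tdpoz1 stood at 4.29, 4.29 and 4.11, then 4.94 and 4.28, then 5.96, 6.07 and 5.5, a difference of -1.61. Dppa2, a chromatin factor that acts upstream of this burst, stood at 5.69, 4.2 and 5.68, then 5.95 and 5.24, then 6.66, 6.14 and 6.74. In the Zscan4 family, the classic genes of the burst, Zscan4c (-0.84) and Zscan4d (-0.66) were lower without overlap. Zscan4e (-1.08), Zscan4b (-0.68) and Zscan4a (0.63) overlapped. The exceptions without overlap were Gadd45g (0.87) and Klf5 (0.70), genes that other cells also express. The maternal and 2-cell lists hold families of near-identical copies (Zscan4, Obox, Usp17l, Tcl1b and Fbxw), whose probesets can bind more than 1 member.

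Cell cycle genes shared this pattern. Of 43, 39 had a difference below 0 (median -0.60), 24 were lower without overlap (55.8%) and none was higher. Ccna2, cyclin A2, stood at 6.17, 5.65 and 6.37, then 6.9 and 6.28, then 7.25, 7.17 and 7.33. Cdk1, the kinase that drives mitosis, stood at 6.08, 5.14 and 5.9, then 6.04 and 5.5, then 6.86, 6.48 and 6.63. The replication licensing genes overlapped, with differences of -0.08 for Mcm3, 0.01 for Mcm4, -0.28 for Mcm5, -0.27 for Mcm6, -0.08 for Mcm7 and -0.32 for Cdt1. Ribosome biogenesis genes had a median of -0.32, with 29 of 37 below 0 and 4 lower without overlap (10.8%), and the median was -0.13 without nonTG replicate 1 and -0.18 without C57BL/6 replicate 3.

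Genes used by every cell went both ways. Ribosomal protein genes had a median of 0.57, with 45 of 50 above 0 and 31 higher without overlap (62%), opposite in sign to the ribosome biogenesis genes. Oxidative phosphorylation genes had a median of 0.76, with 55 of 59 above 0 and 46 higher without overlap (78%), the largest share of the lists described. Their mean level was 6.66, 6.31 and 6.52, then 6.31 and 6.17, then 6, 5.82 and 5.52, and 14 of them kept the order of the 3 sets. Atp5d, a subunit of ATP synthase, stood at 7.34, 6.6 and 6.93, then 6.13 and 5.89, then 5.98, 5.13 and 4.93. Its second probeset had a smaller difference, 0.96 against 1.61. Rplp0, of the ribosomal stalk, differed by 1.05 with its brightest probeset and by -0.42 with a dimmer one.

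After quantile normalization the medians of ribosomal protein and oxidative phosphorylation genes were 0.33 and 0.54, and after cyclic loess 0.22 and 0.43, while those of maternal genes were -0.88 and -0.89. By the same scalings the medians were 0.59 and 0.58 for ciliary, 0.77 and 0.73 for secretory and 0.75 and 0.74 for stromal genes. Higher without overlap were then 44 of 83 ciliary and 10 of 28 stromal genes under each scaling. For secretory genes these counts were 10 and 9 of 27, and for oxidative phosphorylation genes 40 and 37 of 59. Over all genes they were 1960 of 11429 after quantile normalization and 1818 of 11434 after cyclic loess. Proteasome genes had a median of 0.48 (24 of 27 above 0), and 0.20 after cyclic loess. For heat shock and unfolded protein response genes it was 0.53 (28 of 29 above 0), and 0.28 after cyclic loess. Epithelial defence and complement genes had a median of 0.54 (17 of 22 above 0), and 0.36 without C57BL/6 replicate 3. Lineage and pluripotency genes had a median of 0.21, and 0.63 under the stricter filter. Of 19, 5 were higher (26.3%) and 3 lower (15.8%) without overlap, against 21.9% and 9.01% of all genes. Nothing is read from these counts. The higher ones were Krt18, Krt8 and Cdh1, which belong to the epithelial list as well, Id2 (1.08) and the receptor gene Fgfr2 (0.92). The lower ones were Gata4 (-0.36), Tead4 (-0.65), a factor of the trophectoderm, and Fgf4 (-0.74), a growth factor of the early embryo.

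**Figure D3:**
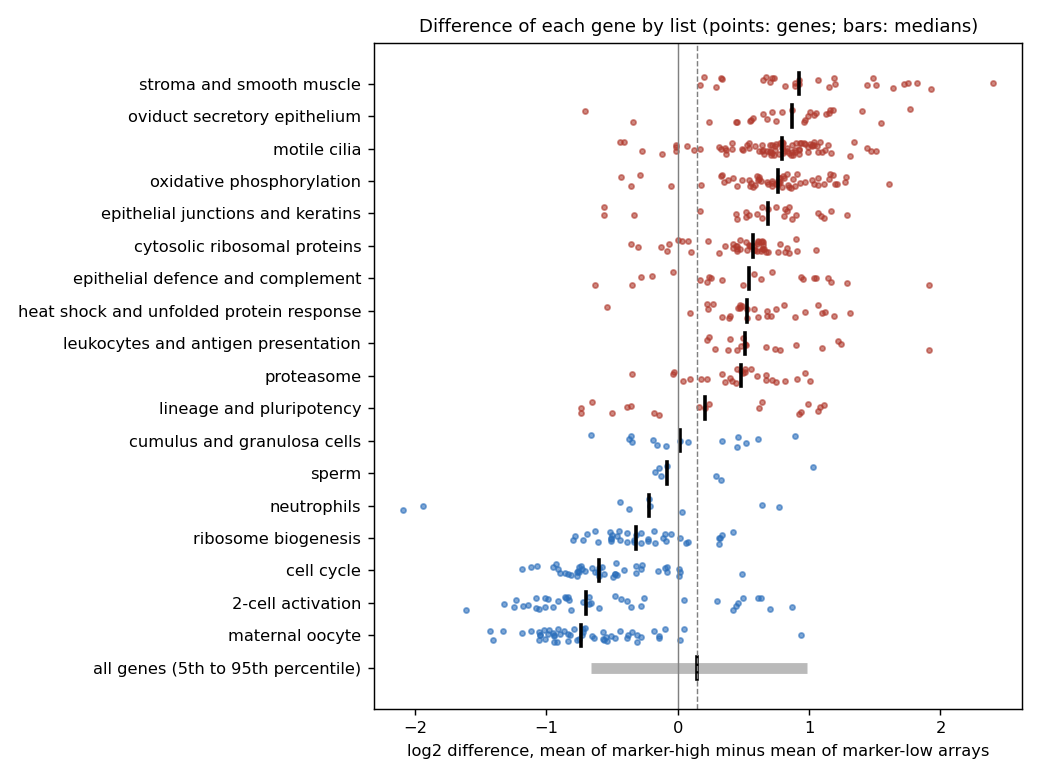
Difference of means, marker-high minus marker-low arrays (horizontal axis, log2), for each gene of 18 lists; points are genes, black bars list medians, and the grey band is the 5th to 95th percentile of all 11434 genes with its median of 0.14 as a dashed line. Lists are red where their median lies above that line and blue below it; medians run from 0.92 for stroma and smooth muscle to -0.74 for maternal oocyte genes.

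Without regard to lists, the genes with the 10 largest higher differences, among those without overlap and without the symbols left out of naming, included secreted and contractile proteins. Prap1, a secreted protein of epithelia in the uterus and gut, stood at 11.82, 10.93 and 9.36, then 9.16 and 9.97, then 9.04, 9.14 and 5.94, a difference of 2.67 (6.35-fold). Without C57BL/6 replicate 3 it was 1.62, since that array lay more than 3 units under the other marker-low arrays. Ecrg4, which encodes a secreted peptide precursor, stood at 5.49, 6.86 and 8.46, then 4.15 and 6.07, then 3.94, 5.11 and 4.29. Klk1, the tissue kallikrein, was tighter, at 5.22, 5.16 and 4.92, then 4.63 and 4.11, then 2.32, 2.97 and 2.92. Guca2b, the peptide hormone uroguanylin, stood at 4.69, 5.26 and 5.01, then 3.17 and 3.21, then 3.18, 3.31 and 2.61, with the between arrays at the marker-low level. Actg2 (2.40), the carboxylesterase gene Ces1f (2.09), Zfp825 (1.98), the cytokine signalling inhibitor gene Socs2 (1.95), and the smooth muscle genes Myl9 and Acta2 (1.93 each) completed the 10, and Acta2 was at 1.28 without C57BL/6 replicate 3. Over all genes, 468 genes were higher by more than 1 without overlap and 100 lower.

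The 10 largest lower differences by the same rule, which leaves out S100a8 and S100a9, include 3 members of the maternal and 2-cell lists (Tdpoz1, Omt2b and Dppa3). Pramel51, of the PRAME family, stood at 5.79, 4.38 and 6.47, then 6.78 and 5.6, then 7.45, 7.26 and 7.41, a difference of -1.83 (3.56-fold). Khdc1a stood at 5.99, 4.86 and 6.08, then 6.72 and 5.46, then 7.22, 7.24 and 6.91. Oog1, an oocyte protein with leucine-rich repeats, stood at 6.28, 5.11 and 6.31, then 6.57 and 6.34, then 7.22, 7.4 and 7.48. In all 3 genes nonTG replicate 1 was lowest. Zfp982 (-1.63), Tdpoz1 (-1.61), Oser1 (-1.58), the homeobox gene Cphx1 (-1.43), Omt2b (-1.43), Dppa3 (-1.41) and Abhd18 (-1.37) completed them. Oser1 was lowest by far in nonTG replicate 1 (2.75, with 5.1 to 6.35 in the other 7 arrays), and its difference without that array was -0.65. Genes of the Pramel, Tdpoz, Khdc1 and Oog families also have close copies.

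**Figure D4:**
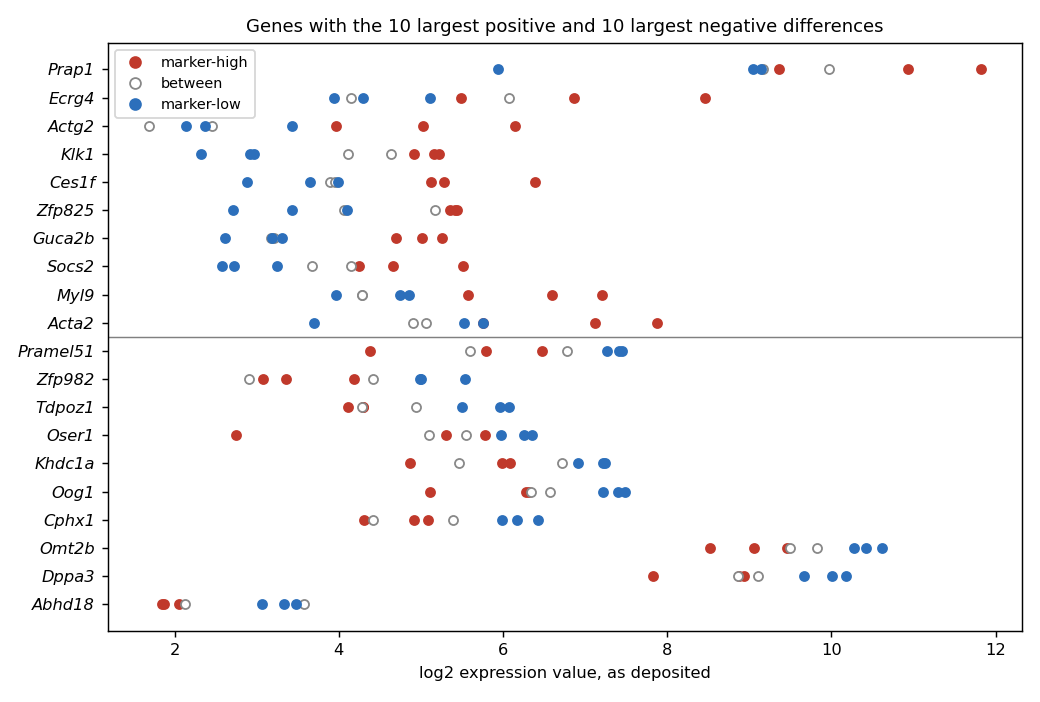
Log2 values (horizontal axis) in each of the 8 arrays for the genes with the 10 largest positive (above the line) and 10 largest negative differences among those without overlap; red marker-high, open grey between, blue marker-low. Red and blue do not cross in any gene, as the choice requires; Acta2 is the closest, with 5.76 in the lowest marker-high and 5.75 in the highest marker-low array.

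The between arrays lay differently for the higher and the lower genes. Both lay above all marker-low arrays in 1007 of the 2509 genes higher without overlap (8.81% of all genes). Both lay below all marker-low arrays in 521 of the 1030 genes lower without overlap (4.56% of all genes). The percentages in this paragraph are of all genes, so they also reflect the larger number of higher genes. All 3 sets kept their order in 303 higher but 34 lower genes (2.65% and 0.297%). Among these 34, 5 belong to the maternal list (Omt2b, Zar1l, Oosp2, Zfp57 and Dazl). None of the 2-cell activation or cell cycle genes kept it, and since only 0.297% of all genes did, nothing is read from this. For the mean of the maternal, 2-cell activation and cell cycle lists, the between arrays lay below all marker-low arrays, and for none of these 3 lists did they lie between the other sets.

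The kind of sire does not vary within the KDM1A TG arrays, where replicates 1 and 3 were marker-high and replicate 2 marker-low. Replicates 1 and 3 minus 2 gave a median of 0.17 over all genes, 0.79 for motile cilia, 0.85 for stroma and smooth muscle, 0.66 for oxidative phosphorylation, -0.59 for maternal oocyte, -0.55 for 2-cell activation and -0.45 for cell cycle genes. A second comparison that shares no array with it is nonTG replicate 1 minus C57BL/6 replicates 1 and 3, in which the kinds of sire do differ. Both comparisons set marker-high against marker-low arrays of the same ranking. The choice of arrays thus favours their agreement, and nothing is read from its size. Across the 11434 genes, which are not independent of each other, the comparisons correlated at r = 0.48. Both were above 0 for 42.4% of all genes, and for 72 of 83 ciliary, 26 of 28 stromal and 52 of 59 oxidative phosphorylation genes. Both were below 0 for 25.6% of all genes, and for 45 of 54 maternal, 34 of 43 cell cycle and 27 of 40 2-cell activation genes.

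**Figure D5:**
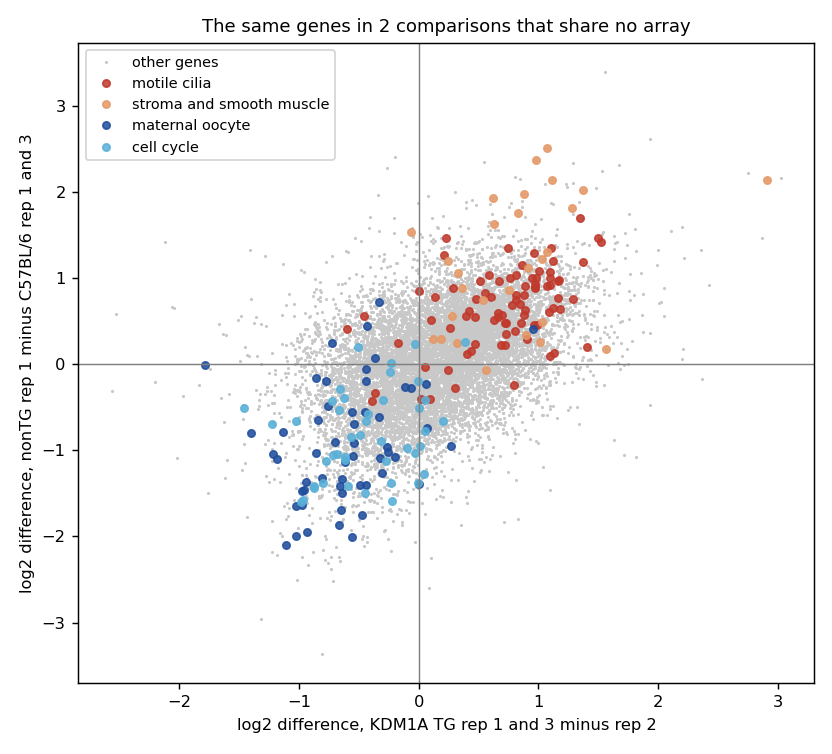
Each point is a gene, with its log2 difference between KDM1A TG replicates 1 and 3 and replicate 2 (horizontal axis) and between nonTG replicate 1 and C57BL/6 replicates 1 and 3 (vertical axis); colours mark 4 lists. Ciliary and stromal genes lie mostly at the upper right and maternal and cell cycle genes at the lower left, with r = 0.48 across all genes. Both comparisons set marker-high against marker-low arrays, which favours their agreement.

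With KDM1A TG replicates 1 and 3 left out, nonTG replicate 1 alone was set against the 3 marker-low arrays. This choice was made after the data were seen. The medians were 0.63 for ciliary, 1.06 for stromal and 0.58 for oxidative phosphorylation genes. They were -0.97 for maternal, -1.11 for 2-cell activation and -0.81 for cell cycle genes. The last 3 were larger in size than with all 3 marker-high arrays. They rest on 1 array, the lowest of the 8 for the means of these lists (3.77, 4.16 and 3.82). The part of array spread was not tested. Over all 8 arrays, with the marker mean and each gene centred within each kind of sire, the slope of a gene gives its log2 change per log2 unit of the marker mean. Its median was 0.14 over all genes, 0.74 for ciliary, 0.90 for secretory, 0.92 for stromal and 0.85 for oxidative phosphorylation genes, and -0.79 for maternal, -0.88 for 2-cell activation and -0.83 for cell cycle genes.

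The comparison of sires, which the design implies, shares its arrays with the marker sets. With limma on all 8 arrays and Benjamini-Hochberg adjustment, 75 of 11444 genes (0.655%) rose and 8 (0.0699%) fell in KDM1A TG against C57BL/6 embryos. In nonTG against C57BL/6 embryos, 8 (0.0699%) rose and 7 (0.0612%) fell. The marker mean moved with these groups, since 2 of 3 KDM1A TG arrays were marker-high and 2 of 3 C57BL/6 arrays marker-low, and its part in the calls was not tested. The totals moved with single arrays, from 83 to between 9 (without KDM1A TG replicate 3) and 254 (without C57BL/6 replicate 2), and from 15 to between 3 (without nonTG replicate 2) and 80 (without C57BL/6 replicate 2).

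Of the 96 genes chosen for description, 8 rose and 1 fell in KDM1A TG against C57BL/6 embryos, where 0.655% of all genes rose and 0.0699% fell. Most of the 96 were picked by their difference on the same arrays, so nothing is read from this count. Wfdc15b, a secreted protein of the same family as Wfdc2, rose by 1.66 (SE 0.34, adjusted p = 0.00511). Its values were 7.27, 6.81 and 8.07, then 6.76 and 6.45, then 6.79, 5.76 and 4.94, so that the marker sets nearly touch. Myl9, the regulatory light chain of smooth muscle myosin, rose by 1.54 (SE 0.39, limma adjusted p = 0.0338), and stood at 5.57, 6.6 and 7.2, then 4.28 and 4.28, then 4.85, 4.75 and 3.97. In KDM1A TG replicate 2, which is marker-low, Myl9 was thus at 4.85, near the C57BL/6 values. Bgn, a proteoglycan of connective tissue, rose by 1.38 (SE 0.35, adjusted p = 0.0374), and Dnajc3, a chaperone of the endoplasmic reticulum, by 1.36 (SE 0.33, adjusted p = 0.0262).

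Acta2 (1.75) and Atp5d (1.43) also rose, and both were higher without overlap in the marker-high arrays. The other three genes that passed overlapped between the marker sets, namely Myd88, Sult1d1 and S100a9. Myd88, the adaptor of Toll-like receptors, stood at 6.29, 4.98 and 6.94, then 6.72 and 5.25, then 6.1, 3.85 and 4.38. Its value in KDM1A TG replicate 2 lay above both other marker-low arrays by more than 1.5 units. The sulfotransferase gene Sult1d1 stood at 6.67, 6.3 and 5.54, then 7.06 and 5.58, then 6.11, 4.7 and 4.16, and its difference within the KDM1A TG arrays was -0.01. It rose in both comparisons with C57BL/6, by 1.29 in KDM1A TG (SE 0.34, limma adjusted p = 0.0471) and by 1.86 in nonTG (SE 0.38, limma adjusted p = 0.0122). The nonTG call was lost with the replicate number as a block (adjusted p = 0.087), after quantile normalization (0.156) and cyclic loess (0.172), and without nonTG replicate 2 (0.392), C57BL/6 replicate 3 (0.123) or KDM1A TG replicate 2 (0.0674). S100a9 fell by 1.92 in KDM1A TG (SE 0.42, limma adjusted p = 0.0111), and by 0.87 without C57BL/6 replicate 1, where it did not pass (adjusted p = 0.526).

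The calls in KDM1A TG depended on single marker-high and marker-low arrays. Without KDM1A TG replicate 3, the widest array, none of the 9 genes passed, with limma adjusted p from 0.0947 for Myd88 to 0.815 for Myl9. Without C57BL/6 replicate 3, the array with the lowest marker mean, 7 of the 9 did not pass, and Myd88 and S100a9 did. After quantile normalization none passed (adjusted p from 0.156 to 0.45), and after cyclic loess none (from 0.167 to 0.469).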

How the data were processed

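RNA of 8 embryo pools was measured on Affymetrix arrays, 1 per pool. The authors deposited log2 expression values per probeset. Tools listed in the submitters' processing notes are limma, RMA, oligo and R 3.1.0, with no role for any of them. How background was corrected is not given in the sources used here. In the absence of scanner files no level is called above background, and a filter on low values was used.

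Of 22961 probesets, 15745 carried 1 symbol. Each gene took its brightest one, and 574 genes had several. Genes with a mean above the 30th percentile of probesets (log2 2.07) were kept, 11444 in the sire fit and 11434 without the 10 markers. Symbols came from the platform annotation. The marker sets were compared by the difference of means and by whether all 3 arrays of a set lay beyond all 3 of the other. Sires were compared with limma 3.58.1 (lmFit, eBayes; R 4.3.3), two-sided, adjusted over all genes at 0.05. Scripts were tested on simulated data.

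Named genes are the 10 largest differences on each side without overlap and up to 4 members of each of 20 lists by size of difference. Predicted genes, small RNAs, antigen receptor segments and olfactory or vomeronasal receptors were left out of the former, which removed 127 higher and 204 lower genes. Other list members named were chosen after their values were seen. The arrays, markers and lists were chosen with earlier results of these data known. Promoters are RefSeq sequences of GRCm38.p6, and a gene held a motif if any of its promoters did. The shown promoters are the 3 members of each list with the motif and the largest difference among those without overlap, in windows that could be printed.

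Alternatives covered scaling, filter, probeset choice, marker ranking, the arrays in each set, variance model, replicate block and each array left out.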

Additional observations from a re-analysis of the deposited data

How the results depend on the processing

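None of the scalings, filters and choices of arrays tried turned the sign of the medians described above, except those of the cumulus, sperm and neutrophil lists. Among named genes, Hsd3b1, Prm3, Sult1d1 and Dcpp3 turned sign under at least 1 choice of arrays. The counts without overlap rose where sets held fewer arrays, by construction: to 5595 higher and 3325 lower with KDM1A TG arrays only, 3886 and 3007 with nonTG replicate 1 alone (chosen after seeing the data), and 3732 and 2150 with the 2 highest and 2 lowest arrays. Leaving out each of the 6 arrays gave 2773 to 3859 higher and 1385 to 1610 lower genes, over 1.5 times the reported counts without nonTG replicate 1 (3859 and 1592), and for lower genes also without KDM1A TG replicates 3 (1554) and 2 (1564) and C57BL/6 replicate 1 (1610). Ranking by ciliary markers gave 1610 higher genes. The unfiltered table gave 1524 lower genes and the 50th percentile filter 698. The within-sire slope of maternal genes was -1.18 under quantile scaling and -1.22 under cyclic loess, and -1.06 to -0.62 with arrays left out. That of ciliary genes was 0.47 (without KDM1A TG replicate 2) to 1.08 (without C57BL/6 replicate 3).

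Genes called in KDM1A TG against C57BL/6 (83) numbered 5 after quantile normalization and 5 after cyclic loess, 151 after median centring, 138 without the filter, 53 with the stricter filter and 128 with a trended, robust variance. In nonTG against C57BL/6 (15) they numbered 1, 1, 13, 44, 9 and 30. With arrays left out they ran from 9 (without KDM1A TG replicate 3) to 254 (without C57BL/6 replicate 2) in the first, with 33, 30 and 228 without C57BL/6 replicates 1 and 3 and KDM1A TG replicate 2. In the second they ran from 3 (without nonTG replicate 2) to 80 (without C57BL/6 replicate 2), with 51, 31 and 4 without nonTG replicate 1 and KDM1A TG replicates 1 and 2. The cause was not tested. Replicate numbers were not taken to pair the arrays. Same-numbered arrays had correlated deviations of -0.07, -0.38 and -0.11 (C57BL/6 and KDM1A TG), 0.01 and -0.25 (C57BL/6 and nonTG) and 0.11 and 0.18 (KDM1A TG and nonTG). With the number as a block 76 and 23 genes were called. Of 160 refitted values of the named genes called between sires, 60 lost the call and none turned sign. These values do not cover the other called genes.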
